A study of Mus musculus with 15 samples.

Results

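Heat shock proteins and DNAJ chaperones were read out in lung fibroblasts during breast cancer metastasis. A gene belonged to the set if its symbol began with Hspa, Hspb, Hspd, Hspe or Hsph followed by a digit, or with Hsp90 or Dnaj. Each gene was represented by its brightest probe set that carried a single symbol, and 70 of the 18193 genes tested met the rule. They were divided by location and known behaviour into 7 inducible cytosolic chaperones, 8 constitutive cytosolic HSP70-family proteins, 4 muscle-type small heat shock proteins, 4 other small heat shock proteins, 13 chaperones of the endoplasmic reticulum, 9 of mitochondria and 25 other DNAJ proteins. Of the 70 genes, 56 had a mean level above that of the median gene (8.12 on the log2 scale).

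The fibroblasts came from lungs of female NSG mice, which carry the scid mutation in Prkdc and lack Il2rg, and so have no mature T, B or NK cells. Mice were 6 to 8 weeks old and received MDA-MB-231 human breast cancer cells (MDA) or MDA-MB-231-LM2 cells (MDA-LM2), a subline selected for growth in lung, into the tail vein. Lungs were taken at week 1 (micrometastasis, micro) or week 3 (macrometastasis, macro), and age-matched mice without cancer cells gave the healthy group. There were 3 arrays in each of the 5 groups, and each array held RNA of 1 to 3 mice, so that all p-values measure the spread between mice or small pools. Mice with cancer cells were chosen for similar bioluminescence between MDA and MDA-LM2 at each week. All lungs were digested with collagenase and dispase at body temperature, for a time that the authors give as a range and not by group. Cells were sorted for PDGFRA or PDGFRB and against CD45, CD11b, CD31 and EPCAM. All 5 groups therefore share the scid background, the enzymes and temperature of the digestion and the sort. The cancer cells are human cells growing in a host without adaptive immunity. Values below are log2 intensities, a difference of 1 is a doubling, and a call is a Benjamini-Hochberg adjusted p below 0.05 over all 18193 genes in limma.

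HSP70 proteins bind exposed hydrophobic stretches of unfolded proteins in cycles of ATP hydrolysis. DNAJ proteins bring them their clients and speed up the hydrolysis, and the HSP110 proteins, such as Hsph1 and Hspa4, release the nucleotide. HSP90 takes over late folding steps of kinases and steroid receptors, and small heat shock proteins hold partly unfolded proteins without ATP. Heat shock factors switch on the inducible members through heat shock elements, which are inverted repeats of GAA and TTC in the promoter. Endoplasmic reticulum and mitochondrial chaperones answer to separate stress pathways. Fibroblasts use the collagen chaperones of the endoplasmic reticulum at all times, while Hspb6, Hspb7, Hspb2 and Hspb3 are best known from heart, smooth and skeletal muscle. Enzymatic digestion of tissue at body temperature is known to induce immediate early genes such as Fos, Egr1 and Atf3 and also Hspa1a and Hspa1b.

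Promoter windows of RefSeq (GRCm38.p6), each of 300 bases from 250 before to 50 after a gene start, were found for 57 of the 70 genes. Both orientations of the short element, GAANNTTC and TTCNNGAA, were searched, and each reads the same on both strands. It stood in a window of 16 of the 57 genes (28.1%) and of 17.0% of all 27025 genes with a window. The longer form, with 1 more unit, GAANNTTCNNGAA or TTCNNGAANNTTC, which contains the short one, stood in 4 of the 57 (Hspd1, Hspe1, Hsph1 and Dnajb6) and in 0.662% of all genes. By class, 5 of 6 inducible chaperones with a window held a short element, against 0 of 7 constitutive cytosolic ones, 1 of 11 of the endoplasmic reticulum, 2 of 6 of mitochondria, 2 of 3 muscle-type, 2 of 4 other small heat shock proteins and 4 of 20 other DNAJ genes. A match describes these letters only, and says nothing of binding.

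Windows of the genes that the results turn on, in related pairs, are shown 5′ to 3′ in the direction of the gene, with short elements in capitals. Hspa1a (chr17:34972107-34972406, minus strand) and Hspa1b (chr17:34959189-34959488, minus strand) encode the stress-inducible HSP70 and are copies of each other, with 296 of 300 bases identical in these windows and the element starting 104 bases before the gene start in both. Hspd1 and Hspe1, the mitochondrial chaperonin and its cofactor, share a promoter between them, and the minus-strand window of Hspd1 (chr1:55087883-55088182) holds 3 overlapping elements that also lie in the window of Hspe1, while the other window of Hspd1 (chr1:55088194-55088493) holds 0. Hspb6 (chr7:30553051-30553350, plus strand) and Hspb7 (chr4:141420529-141420828, plus strand) are the muscle-type genes that differed most between the lines, and only Hspb6 held an element, in 1 of its 2 windows. A CArG box, the site of serum response factor in smooth muscle promoters, was found in neither (1.81% of all genes, and 1 of the 57, Dnajc16).
Hspa1a: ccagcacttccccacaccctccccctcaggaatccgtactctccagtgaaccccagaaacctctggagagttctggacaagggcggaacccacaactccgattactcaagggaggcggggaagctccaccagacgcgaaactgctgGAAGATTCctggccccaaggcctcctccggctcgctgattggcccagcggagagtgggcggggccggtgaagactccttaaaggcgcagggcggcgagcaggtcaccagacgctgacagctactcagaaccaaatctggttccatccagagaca
Hspa1b: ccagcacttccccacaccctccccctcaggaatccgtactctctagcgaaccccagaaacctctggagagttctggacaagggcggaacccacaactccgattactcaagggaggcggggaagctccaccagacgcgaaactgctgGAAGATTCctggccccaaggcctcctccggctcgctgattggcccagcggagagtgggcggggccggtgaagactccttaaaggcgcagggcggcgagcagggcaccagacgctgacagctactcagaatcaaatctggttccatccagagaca
Hspd1: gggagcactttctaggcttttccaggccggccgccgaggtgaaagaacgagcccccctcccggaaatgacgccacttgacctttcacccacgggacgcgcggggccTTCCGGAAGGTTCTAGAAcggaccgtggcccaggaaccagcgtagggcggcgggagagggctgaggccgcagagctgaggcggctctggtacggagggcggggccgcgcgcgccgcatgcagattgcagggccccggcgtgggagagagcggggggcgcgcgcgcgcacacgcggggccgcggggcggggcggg
Hspb6: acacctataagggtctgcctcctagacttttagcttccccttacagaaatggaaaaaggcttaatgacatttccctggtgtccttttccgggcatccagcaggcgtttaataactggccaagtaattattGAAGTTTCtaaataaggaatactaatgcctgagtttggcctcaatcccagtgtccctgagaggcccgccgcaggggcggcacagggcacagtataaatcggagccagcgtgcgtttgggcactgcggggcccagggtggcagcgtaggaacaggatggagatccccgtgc
Hspb7: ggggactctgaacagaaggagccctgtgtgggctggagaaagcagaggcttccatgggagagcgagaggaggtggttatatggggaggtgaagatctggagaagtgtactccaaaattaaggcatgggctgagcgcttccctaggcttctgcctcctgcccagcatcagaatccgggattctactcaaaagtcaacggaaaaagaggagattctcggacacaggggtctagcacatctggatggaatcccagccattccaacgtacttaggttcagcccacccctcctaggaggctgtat

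The most calls came between the stages, in the comparison with the most arrays. In a fit of the 12 metastasis arrays that allowed for the line, 28 of the 70 genes (40%) differed between macro and micro, where 31.1% of all genes tested were called. Of these, 15 were higher at the macro stage (background 18.8%) and 13 lower (background 12.3%). Against healthy lungs, 13 were called in MDA macro (background 15.2%), 8 of them higher (background 8.43%) and 5 lower (background 6.8%). In MDA-LM2 macro 15 were called (background 22.6%), 12 of them higher (background 13.6%) and 3 lower (background 8.98%). At the micro stage, 0 were called in MDA (background 0%; lowest adjusted p of a member 0.311, and 10 members, 14.3%, had an unadjusted p below 0.05 against 8.48% of all genes). In MDA-LM2 micro 3 were called, Hspb7 and Hspa2 higher and Hspa1a lower (background 0.583% in all, 0.467% higher and 0.115% lower). Between the lines, Hspb6 and Hspb7 were called higher in MDA-LM2 at the micro stage (background 0.412% in all, 0.341% higher and 0.0715% lower) and 0 genes at the macro stage (background 0.011%; 6 members, 8.57%, had an unadjusted p below 0.05 against 10.2% of all genes). The same 2 genes were the only members whose stage effect was called different between the lines, both negative (background 0.566% in all, 0.154% positive and 0.412% negative). The median log2 fold change of the 70 genes lay between -0.01 and 0.12 in all 8 comparisons, and that of all genes between 0 and 0.08. The comparisons with healthy lungs share the healthy arrays.

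**Figure D1:**
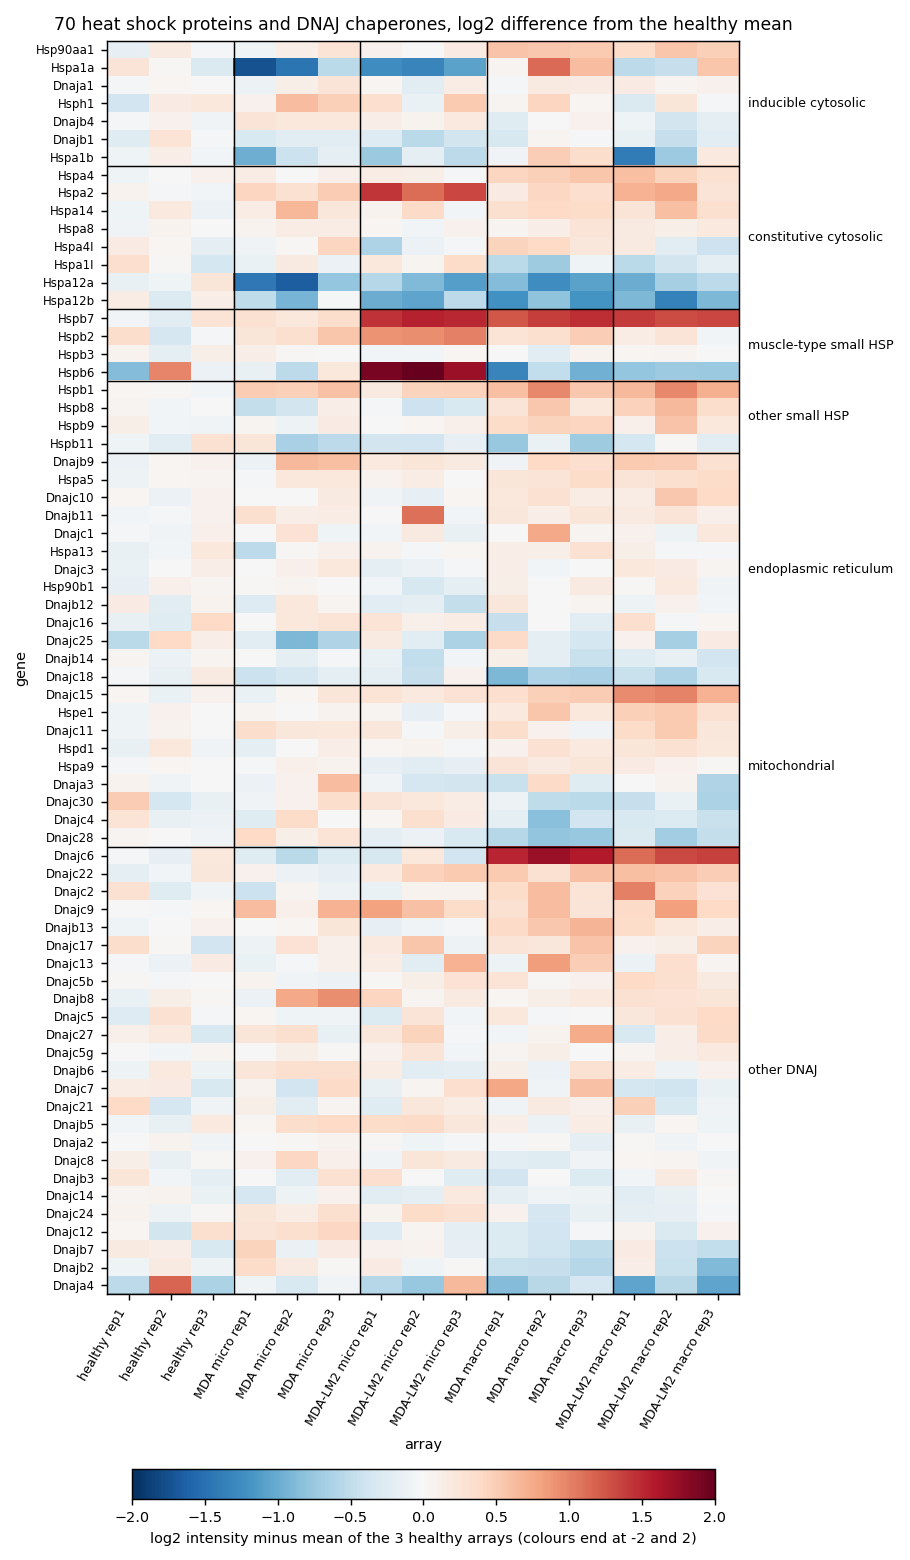
Log2 intensity of each of the 70 genes on each of the 15 arrays, minus the mean of the 3 healthy arrays, in the 7 classes and, within a class, in the order of the mean over the macro arrays. Hspb6 and Hspa2 stood out on the MDA-LM2 micro arrays, Hspb7 on these and on all macro arrays, and Dnajc6 on the macro arrays, while most rows of the endoplasmic reticulum class stayed pale.

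The mean of 10 fibroblast markers was 12.60 to 12.93 on all arrays, but single markers changed. At the macro stage 2 were higher than at the micro stage and 4 lower, among them Thy1 (9.32 to 10.69 on micro arrays, 12.39 to 12.69 on macro arrays) and Tcf21 (12.39 to 13.07 and 11.58 to 11.98). Pdgfra was 11.70 to 12.65 and Pdgfrb 11.67 to 12.44, while Ptprc (6.26 to 6.57) and Epcam (6.46 to 6.72) lay near the low end throughout and Pecam1 was 6.89 to 8.27. Of the lists of other cells, the leukocyte and mesothelial ones were higher at the macro stage. Between the stages 18.8% of all genes were called higher and 12.3% lower. Of 9 leukocyte markers 4 were higher at the macro stage and 0 lower (mean 6.63 to 6.97 on healthy and micro arrays, 7.28 to 7.96 on macro arrays). The T cell gene Cd3e read 5.8 to 6.5 on healthy and micro arrays and 8.2 to 9.4 on macro arrays, although these mice have no mature T cells. The source of its signal was not tested. Of 6 mesothelial markers all 6 were higher (6.35 to 7.32 against 8.14 to 9.76). Of 10 epithelial markers 2 were higher and 1 lower (6.78 to 7.65 against 7.51 to 7.78), and of 8 endothelial markers 3 were higher and 1 lower (7.25 to 7.88 against 7.46 to 7.89). The Gapdh signal near the 3′ end exceeded that near the 5′ end by 1.16 to 1.70 on healthy arrays and by 1.01 to 1.05 on MDA-LM2 macro arrays, with the other groups between 1.03 and 1.44. The part of these markers and of RNA quality in the stage differences below was not tested, and in sorted bulk RNA a change in the mix of cells and a change per cell cannot be told apart.

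A pair of muscle-type small heat shock proteins set MDA-LM2 micro apart from MDA micro, and they differed at the macro stage. Hspb6, a small heat shock protein that is phosphorylated when smooth muscle relaxes, rose in MDA-LM2 micro over MDA micro and lay lower again at the macro stage. Hspb7, a small heat shock protein first described in heart and vessels, was already high in MDA-LM2 micro and lay in the same range in both macro groups, but not in MDA micro.

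For Hspb6 the healthy arrays read 9.33, 11.16 and 10.08. MDA micro read 10.04, 9.67 and 10.40, and MDA-LM2 micro 12.08, 12.19 and 11.92. MDA macro read 8.86, 9.70 and 9.23, and MDA-LM2 macro 9.41, 9.46 and 9.44. The 3 MDA-LM2 micro arrays lay above all 12 others, and healthy replicate 2 stood apart within its group. Between the lines at the micro stage the log2 fold change was 2.03 ± 0.20 (SE), or 4.07-fold (adjusted p = 0.0202), and at the macro stage 0.17 ± 0.20 (adjusted p = 0.831). Against healthy lungs MDA-LM2 micro differed by 1.87 ± 0.42 but was not called (adjusted p = 0.147), and without healthy replicate 2 the difference was 2.36 with an adjusted p of 0.0663. With all 15 arrays in 1 fit this difference was called (adjusted p = 0.013), but under no other alternative. Over both lines Hspb6 was 1.70 ± 0.30 lower at the macro stage (adjusted p = 0.00101).

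For Hspb7 the healthy arrays read 9.81, 9.65 and 10.13 and the MDA micro arrays 10.16, 10.08 and 10.22. MDA-LM2 micro read 11.30, 11.40 and 11.37. MDA macro read 11.10, 11.25 and 11.34, and MDA-LM2 macro 11.27, 11.17 and 11.20. The 9 arrays of the last 3 groups formed a high set and the 6 healthy and MDA micro arrays a low set, with no overlap. Against healthy lungs Hspb7 was 2.81-fold higher in MDA-LM2 micro (adjusted p = 0.0197), 2.58-fold in MDA macro (adjusted p = 0.00214) and 2.55-fold in MDA-LM2 macro (adjusted p = 0.00111). In MDA micro it differed by 0.29 ± 0.15 (adjusted p = 0.658). Between the lines it was 1.20 ± 0.11 higher in MDA-LM2 at the micro stage (adjusted p = 0.0202) and differed by -0.01 ± 0.11 at the macro stage (adjusted p = 0.982).

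The stage effect of both genes differed between the lines. The interaction was -1.85 ± 0.30 for Hspb6 (adjusted p = 0.0217) and -1.22 ± 0.14 for Hspb7 (adjusted p = 0.00554). With each of the 12 arrays left out in turn, Hspb7 kept its interaction call in every fit, and Hspb6 lost it in 4 (without MDA macro replicate 3 or any of the 3 MDA-LM2 macro arrays, highest adjusted p 0.0619). With all 15 arrays in 1 fit, Hspb6 also lost it (adjusted p = 0.128). The line difference at the micro stage, on 6 arrays, lost its call in 5 of 6 such fits for both genes (all but without MDA micro replicate 3), with log2 fold changes of 1.84 to 2.21 for Hspb6 and 1.16 to 1.24 for Hspb7 and a highest adjusted p of 0.115. The other probe sets of Hspb7 moved alike, with 1.77 and 1.28 in MDA-LM2 micro against healthy lungs, both called over all probe sets.

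Hspb2, which binds a muscle protein kinase, was highest in MDA-LM2 micro at 11.09, 11.13 and 11.21. Its other arrays lay between 9.86 and 10.76. The difference between the lines was 0.57 ± 0.13 (adjusted p = 0.157) and that from healthy lungs 0.94 ± 0.18 (adjusted p = 0.104), so that neither was called. It was 0.42 ± 0.14 lower at the macro stage over both lines (adjusted p = 0.0419), a call lost in 8 of 12 fits with an array left out (highest adjusted p 0.0902). From micro to macro its group mean went from 11.144 to 10.315 in MDA-LM2, but only from 10.571 to 10.558 in MDA. Hspb3, the fourth gene of the class, was dim on all arrays (6.49 to 6.84) and was called in 0 of 8 comparisons.

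Hspa2, an HSP70 best known for its part in sperm formation, was also highest in MDA-LM2 micro, at 11.07, 10.76 and 10.98, against 9.71, 9.62 and 9.59 in healthy lungs. MDA micro read 10.07, 9.95 and 10.15, so that the groups did not overlap. It was 2.45-fold higher than in healthy lungs (adjusted p = 0.0191) and 0.88 ± 0.13 above MDA micro (adjusted p = 0.056). Its level over both lines was lower at the macro stage by 0.42 ± 0.13 (adjusted p = 0.0325). From micro to macro the group mean went from 10.936 to 10.214 in MDA-LM2, but only from 10.057 to 9.949 in MDA. MDA-LM2 macro still stood 0.57 ± 0.15 above healthy lungs (adjusted p = 0.0371), a call lost in 5 of 6 fits with an array left out (all but without MDA-LM2 macro replicate 3, highest adjusted p 0.113). With arrays left out in turn, the calls of MDA-LM2 micro against healthy lungs were lost in 5 of 6 fits for Hspa2 (all but without MDA-LM2 micro replicate 2, highest adjusted p 0.0953) and for Hspb7 (all but without healthy replicate 3, highest adjusted p 0.096). The call of Hspa2 between the stages was lost in 6 of 12 (highest adjusted p 0.0734).

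**Figure D2:**
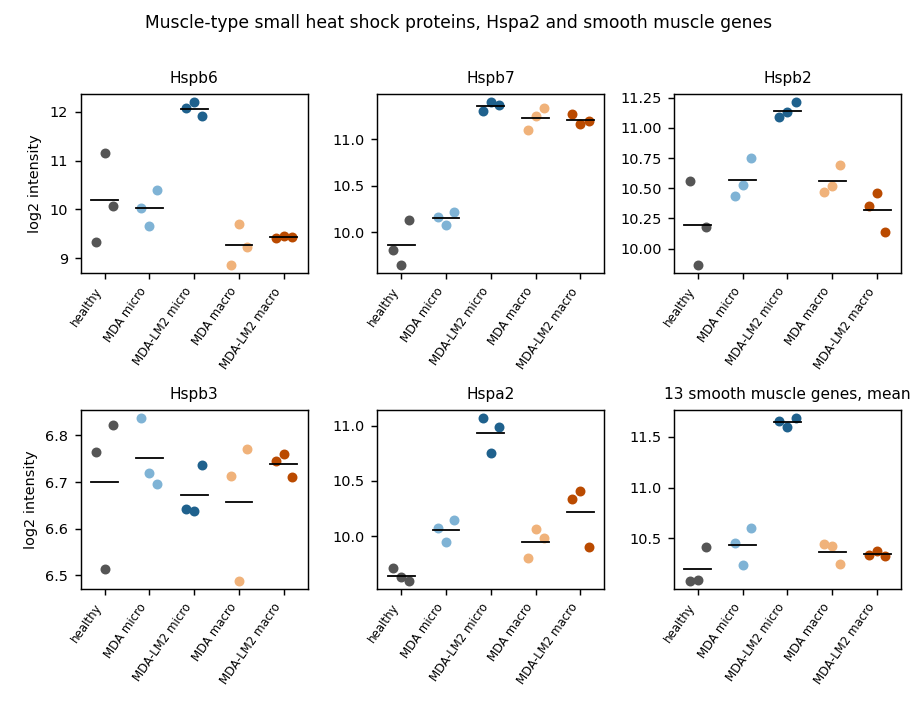
Log2 intensity on each array (points) with group means (lines) for the 4 muscle-type small heat shock proteins, Hspa2 and the mean of 13 smooth muscle genes. The 3 MDA-LM2 micro arrays were the highest for Hspb6, Hspb2, Hspa2 and the smooth muscle mean (11.60 to 11.68), while Hspb7 was as high at the macro stage and Hspb3 was dim throughout.

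The same arrays were highest for smooth muscle genes. The mean of 13 contractile genes that are no members was 10.08 to 10.42 on healthy arrays, 10.24 to 10.60 in MDA micro, 11.60 to 11.68 in MDA-LM2 micro, 10.25 to 10.44 in MDA macro and 10.32 to 10.37 in MDA-LM2 macro. Of the 13, 9 were higher in MDA-LM2 micro than in healthy lungs and 7 higher than in MDA micro, where the background of genes called higher was 0.467% and 0.341%. Cnn1 (calponin) was 1.92 ± 0.14, Myh11 (smooth muscle myosin) 1.29 ± 0.13 and Acta2 (smooth muscle actin) 0.80 ± 0.10 higher with MDA-LM2 than with MDA at this stage. At the macro stage the list split. Against healthy lungs 4 of the 13 were higher and 1 lower in MDA (8.43% and 6.8% of all genes). In MDA-LM2 2 were higher and 2 lower (13.6% and 8.98%). Myh11 differed from healthy lungs at this stage by -1.23 ± 0.22 in MDA and -0.90 ± 0.26 in MDA-LM2. Acta2 (0.87 ± 0.17 and 0.74 ± 0.15) and Tagln (transgelin, 0.92 ± 0.15 and 0.82 ± 0.12) were higher, as Hspb7 was, and both were also high in MDA-LM2 micro (13.57 to 13.59 and 13.30 to 13.40) and low in healthy lungs (12.33 to 12.82 and 12.07 to 12.32). Cryab, a small heat shock protein of muscle outside the symbol rule, was called in 0 of 8 comparisons (11.60 to 12.07 on all arrays). The part of smooth muscle cells in these levels was not tested.

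**Figure D3:**
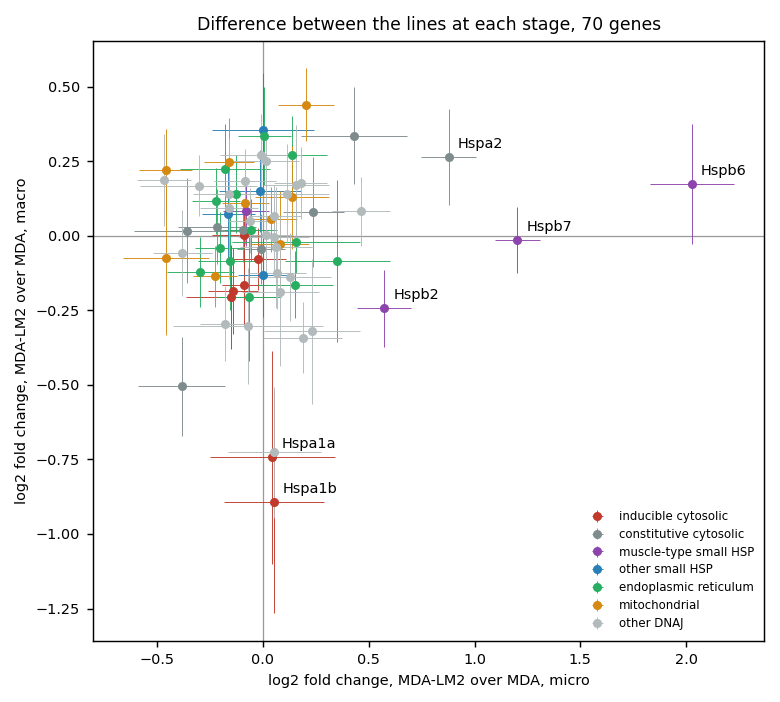
Log2 fold change of MDA-LM2 over MDA for each of the 70 genes at the micro stage (horizontal) and the macro stage (vertical), with standard errors as bars. Hspb6 (2.03) and Hspb7 (1.20) lay far to the right and near 0 on the vertical axis, and Hspa1a and Hspa1b lay low with wide vertical bars.

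The inducible cytosolic chaperones did not move as a group. Of the 7, 2 were higher at the macro than at the micro stage (Hspa1a and Hsp90aa1), 1 was lower (Dnajb4) and 4 were not called, where 18.8% of all genes were called higher and 12.3% lower. Against healthy lungs only Hsp90aa1 was called at the macro stage and only Hspa1a at the micro stage.

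Hspa1a read 10.94, 10.71 and 10.39 on the healthy arrays. MDA micro read 8.93, 9.22 and 10.14 and MDA-LM2 micro 9.44, 9.36 and 9.62. MDA macro read 10.73, 11.82 and 11.30 and MDA-LM2 macro 10.16, 10.22 and 11.24. All 6 micro arrays were below all healthy and all macro arrays, and MDA-LM2 macro overlapped the healthy range. The stage difference was 1.46 ± 0.27, or 2.75-fold (adjusted p = 0.00145), and it was called with any of the 12 arrays left out. MDA-LM2 micro was 1.21 ± 0.17 below healthy lungs (adjusted p = 0.0435), a call lost in 5 of 6 fits that left an array out (all but without healthy replicate 3, highest adjusted p 0.15). MDA micro differed by -1.25 ± 0.32 (adjusted p = 0.426).

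Hspa1b followed in part. It read 11.66, 11.88 and 11.69 on healthy arrays, 10.77, 11.32 and 11.55 in MDA micro, and 11.00, 11.57 and 11.22 in MDA-LM2 micro. MDA macro read 11.67, 12.24 and 12.09 and MDA-LM2 macro 10.35, 11.02 and 11.94. The micro arrays lay below the healthy ones, while the 3 MDA-LM2 macro arrays were far apart, and the stage difference of 0.32 ± 0.27 was not called (adjusted p = 0.408). In MDA-LM2 macro Hspa1b differed from healthy lungs by -0.64 ± 0.36 (adjusted p = 0.247), and by -1.06 with a call without MDA-LM2 macro replicate 3 (adjusted p = 0.0287). The other 2 probe sets of Hspa1b gave stage differences of 0.70 and 0.72, not called. Because both genes have nearly the same sequence, their probe sets may read each other's transcripts, and the split between Hspa1a and Hspa1b is uncertain.

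Hsp90aa1, the stress-inducible cytosolic HSP90, rose at the macro stage in both lines. It read 11.81, 12.15 and 11.95 on healthy arrays and 11.88 to 12.25 on the 6 micro arrays. MDA macro read 12.54, 12.51 and 12.50 and MDA-LM2 macro 12.34, 12.53 and 12.45. All 6 macro arrays were above the 9 others. The difference from healthy lungs was 0.54 ± 0.13 in MDA (adjusted p = 0.0289) and 0.47 ± 0.13 in MDA-LM2 (adjusted p = 0.0384), and between the stages 0.41 ± 0.08 (adjusted p = 0.00177). Each healthy comparison lost its call in 5 of 6 fits with an array left out (all but without healthy replicate 2, highest adjusted p 0.0863 and 0.116), and the stage difference in 0 of 12. Its other bright probe sets gave 0.53 and 0.49 between the stages, both called.

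Of the remaining inducible members, Dnajb4 was lower at the macro stage and the others were not called. Dnajb4, a DNAJ partner of cytosolic HSP70, differed by -0.32 ± 0.08 (adjusted p = 0.00966), with 12.49 to 12.67 on micro arrays and 12.04 to 12.50 on macro arrays. Hsph1, the inducible HSP110, spanned 10.59 to 11.58 over all arrays and differed between the stages by -0.25 ± 0.14 (adjusted p = 0.204). Dnajb1, the main DNAJ partner of inducible HSP70, was 11.59 to 12.39, with a stage difference of 0.13 ± 0.09 (adjusted p = 0.303). Its dimmer probe set was called, at 0.50. Dnaja1 was 11.87 to 12.33 and differed by 0.06 ± 0.09 (adjusted p = 0.659).

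As a list mean, the immediate early genes associated with tissue digestion were, like Hspa1a, lowest on the micro arrays. The mean of 29 such genes was 10.97 to 11.17 on healthy arrays, 10.83 to 10.84 in MDA micro, 10.67 to 10.78 in MDA-LM2 micro, 11.73 to 11.84 in MDA macro and 11.49 to 11.63 in MDA-LM2 macro. In MDA-LM2 macro the list mean was thus above all healthy arrays, while Hspa1a differed from healthy lungs by -0.14 (adjusted p = 0.769). Within groups, the array highest for Hspa1a was also highest for the list mean in 0 of 5 groups. The same count, 0 of 5, held for Hspa1b, whose probe sets may also read Hspa1a transcripts. Each group held few arrays, and list means within a group could lie close together, as in MDA micro (10.83 to 10.84). A count of 0 can therefore arise by chance, and no conclusion is drawn from either count. At the macro stage 21 of the 29 were higher than at the micro stage and 0 lower (18.8% and 12.3% of all genes), among them Atf3 (1.55 ± 0.10), Fosb (1.45 ± 0.18) and Fos (0.33 ± 0.08), while Egr1 differed by 0.17 ± 0.07 and was not called. The shifts were uneven. Nr4a2 read 9.25 to 9.88 on micro arrays and 12.31 to 12.77 on macro arrays. Nr4a3 (9.15 to 9.89 and 11.41 to 12.24) and Ier3 (10.47 to 10.71 and 12.57 to 12.87) were also far apart, while Dusp1 and Jund overlapped between the stages. Against healthy lungs, 2 of the 29 were called lower and 0 higher in MDA-LM2 micro (0.115% and 0.467% of all genes). In MDA micro 0 were called (0% of all genes). Fosb and Atf3 were below healthy lungs in MDA-LM2 micro by 1.93 ± 0.19 and 1.28 ± 0.18. Myc, a member of the list, was 2.16 ± 0.27 higher at the macro stage. The part of tissue digestion in these levels was not tested.

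**Figure D4:**
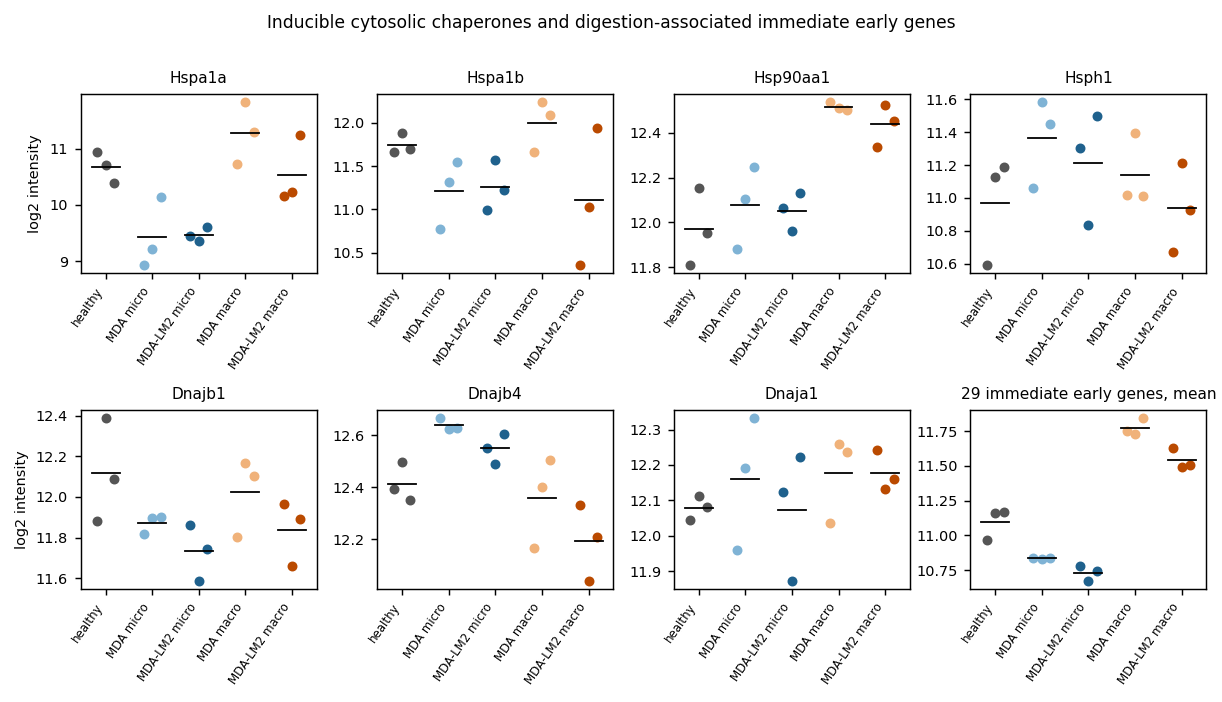
Log2 intensity on each array (points) with group means (lines) for the 7 inducible cytosolic chaperones and the mean of 29 immediate early genes, each panel with its own scale. Hspa1a and the mean of the immediate early genes were lowest on the micro arrays, Hsp90aa1 was highest on the macro arrays, and Dnajb4 was lower there.

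Of 27 measured regulators and co-chaperones of the heat shock response, 5 were higher and 2 lower at the macro stage, beside 18.8% and 12.3% of all genes. Bag3, which links HSP70 to small heat shock proteins and autophagy, was 0.74 ± 0.20 higher in MDA macro and 0.57 ± 0.16 higher in MDA-LM2 macro than in healthy lungs (9.16 to 9.71 on healthy arrays). It read as high in MDA-LM2 micro (9.69 to 10.34) as in MDA-LM2 macro (9.84 to 10.02), with MDA micro at 9.01 to 9.27, and its stage difference over both lines was not called (0.50 ± 0.19, adjusted p = 0.0566). Fkbp5, an HSP90 co-chaperone that glucocorticoids induce, was 1.10 ± 0.16 higher at the macro stage, with 9.80 to 10.63 on macro arrays and 8.73 to 9.48 on the others. Stip1, which joins HSP70 to HSP90, was 0.48 ± 0.12 higher. The 2 genes called lower were Hsf4, a heat shock factor best known from the lens (-0.66 ± 0.15, 8.14 to 9.18 on micro arrays and 7.83 to 8.53 on macro arrays), and Unc45a, a chaperone of myosin (-0.43 ± 0.13). The factor gene Hsf2 was called in 0 of 8 comparisons.

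Of the 4 other small heat shock proteins, 3 were called higher and 0 lower at the macro stage, beside 18.8% and 12.3% of all genes, and the calls of Hspb1 and Hspb9 did not hold under all settings. Hspb1, which guards actin filaments, read 11.77, 11.75 and 11.68 on healthy arrays and 11.92 to 12.33 on micro arrays. MDA macro read 12.34, 12.69 and 12.27 and MDA-LM2 macro 12.39, 12.70 and 12.44. All 12 metastasis arrays were above the 3 healthy ones. It was 1.62-fold higher in MDA macro (adjusted p = 0.0186) and 1.71-fold in MDA-LM2 macro (adjusted p = 0.00514) than in healthy lungs, and 0.53 ± 0.10 and 0.36 ± 0.12 higher in MDA and MDA-LM2 micro, not called (adjusted p = 0.311 and 0.325). Its call in MDA macro was lost without healthy replicate 3 (0.57, adjusted p = 0.0586), and that in MDA-LM2 macro was kept with any array left out. Between the stages it was 0.29 ± 0.10 higher (adjusted p = 0.0446), a call lost in 9 of 12 such fits (highest adjusted p 0.0987).

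Hspb8, the partner of Bag3, rose between the stages. Healthy arrays read 11.30, 11.20 and 11.26, the 6 micro arrays 10.78 to 11.38, MDA macro 11.51, 11.79 and 11.47, and MDA-LM2 macro 11.71, 11.90 and 11.61. The 6 macro arrays were above all others, with a stage difference of 0.66 ± 0.12 (adjusted p = 0.0013). Hspb9, a small heat shock protein of testis, was dim (6.53 to 7.20) and was 0.31 ± 0.09 higher (adjusted p = 0.0207), but not called after quantile normalization (adjusted p = 0.159). Hspb11, a part of the ciliary transport complex, was called in 0 of 8 comparisons.

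Of the 8 constitutive cytosolic HSP70-family proteins, 1 was higher and 2 lower at the macro stage (18.8% and 12.3% of all genes), and Hspa8 was not called. Hspa8, the housekeeping HSP70, was 12.93 to 13.26 over all 15 arrays, with a stage difference of 0.08 ± 0.07 (adjusted p = 0.416). Hspa4, a constitutive HSP110, was 11.62 to 11.86 on healthy and micro arrays and 12.01 to 12.30 on macro arrays, with a stage difference of 0.39 ± 0.07 (adjusted p = 0.00184). When all probe sets of Hspa4 were averaged, its calls were lost (adjusted p = 0.22 between the stages). Hspa1l, an HSP70 of spermatids, was dim (6.39 to 7.47) and was 0.50 ± 0.12 lower at the macro stage.

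The atypical HSP70 genes Hspa12a and Hspa12b were the called members furthest below healthy lungs at the macro stage. Hspa12a read 8.92, 8.97 and 9.30 on healthy arrays, 7.64, 7.42 and 8.29 in MDA micro and 8.49, 8.18 and 7.96 in MDA-LM2 micro. MDA macro read 8.20, 7.82 and 7.99 and MDA-LM2 macro 8.08, 8.40 and 8.55. All 12 metastasis arrays were below the 3 healthy ones. The difference was -1.28 ± 0.24 in MDA micro (adjusted p = 0.311), -0.85 ± 0.18 in MDA-LM2 micro (adjusted p = 0.123), -1.06 ± 0.16 in MDA macro (adjusted p = 0.00587) and -0.72 ± 0.17 in MDA-LM2 macro (adjusted p = 0.0219). The last call was lost without healthy replicate 3 or MDA-LM2 macro replicate 1 or 2 (highest adjusted p 0.0615). The other 3 probe sets of Hspa12a were not called.

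Hspa12b, an HSP70 known from endothelium, read 10.20, 9.78 and 10.18 on healthy arrays and 10.01 or less on the micro arrays. MDA macro read 8.85, 9.25 and 8.86 and MDA-LM2 macro 9.16, 8.70 and 9.15. It fell by 1.07 ± 0.17 in MDA macro (adjusted p = 0.00833) and by 1.05 ± 0.18 in MDA-LM2 macro (adjusted p = 0.00729), calls kept with any array left out. In the same comparisons 1 of 8 endothelial markers was higher and 2 lower in MDA (8.43% and 6.8% of all genes). In MDA-LM2 2 were higher and 2 lower (13.6% and 8.98%). The part of endothelial RNA in the Hspa12b level was not tested.

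Of the 13 genes of the endoplasmic reticulum class, 1 was higher and 1 lower at the macro stage (18.8% and 12.3% of all genes). Against healthy lungs 0 were higher and 1 lower in MDA macro (8.43% and 6.8% of all genes), and 1 was higher and 0 lower in MDA-LM2 macro (13.6% and 8.98%). Hspa5 (BiP), the main HSP70 of this compartment, read 12.26, 12.41 and 12.43 on healthy arrays, 12.33 to 12.58 on micro arrays and 12.62 to 12.73 on macro arrays. Its macro arrays were above all others, yet the difference from healthy lungs was 0.29 ± 0.11 in MDA (adjusted p = 0.129) and 0.31 ± 0.10 in MDA-LM2 (adjusted p = 0.0734), and 0.20 ± 0.07 between the stages (adjusted p = 0.0548). Its second bright probe set was called between the stages, at 0.26. Hsp90b1, the HSP90 of this compartment, was 12.50 to 13.01 and differed by 0.15 ± 0.08 (adjusted p = 0.17). Dnajb9, a DNAJ that restrains the stress sensor IRE1, was 0.44 ± 0.12 higher in MDA-LM2 macro than in healthy lungs (adjusted p = 0.0365), a call lost in 5 of 6 fits with an array left out (all but without MDA-LM2 macro replicate 3, highest adjusted p 0.107). Dnajc10, a disulfide reductase, was 0.30 ± 0.09 higher at the macro stage, and Dnajc18 was 0.33 ± 0.11 lower. Dnajb11 and Dnajc3, further partners of Hspa5, were called in 0 of 8 comparisons, and Dnajb11 read 13.27 on MDA-LM2 micro replicate 2 against 12.11 to 12.48 on the 14 others.

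Of 18 co-chaperones of the organelles, 4 were higher at the macro stage and 0 lower, near the 18.8% of all genes called higher. The 4 were Hyou1 (0.63 ± 0.12), which exchanges the nucleotide of Hspa5, the disulfide isomerases Pdia4 (0.57 ± 0.14) and Pdia6 (0.44 ± 0.15), and Calr (0.30 ± 0.08), which binds glycoproteins.

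Mitochondrial chaperones went both ways, with 4 of 9 higher and 3 lower at the macro stage (18.8% and 12.3% of all genes). Those higher included the folding machinery of the matrix. Hspe1, the chaperonin lid, read 11.59, 11.77 and 11.68 on healthy arrays, 11.52 to 11.75 on micro arrays, 11.88, 12.24 and 11.89 in MDA macro and 12.16, 12.21 and 11.98 in MDA-LM2 macro. The macro arrays were above all others, with a stage difference of 0.38 ± 0.09 (adjusted p = 0.00568). Hspd1, the chaperonin, whose promoter with its 3 elements it shares, differed by 0.22 ± 0.08 (adjusted p = 0.0433), a call lost in 10 of 12 fits that left an array out (highest adjusted p 0.0946; all but without MDA micro replicate 3 or MDA macro replicate 1). Hspa9, the HSP70 of the matrix, was 0.22 ± 0.06 higher (adjusted p = 0.0196), and its partner Dnaja3 was called in 0 of 8 comparisons.

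Dnajc15, a DNAJ of the inner membrane that slows the respiratory chain, read 9.47, 9.29 and 9.51 on healthy arrays and 9.30 to 9.72 on micro arrays. MDA macro read 9.76, 9.90 and 9.93 and MDA-LM2 macro 10.37, 10.41 and 10.12. The macro groups were above the rest and did not overlap each other, but the difference between the lines was not called (0.44 ± 0.12, adjusted p = 0.28). Against healthy lungs it was 1.36-fold higher in MDA macro (adjusted p = 0.0487) and 1.84-fold in MDA-LM2 macro (adjusted p = 0.00366).

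The mitochondrial members that fell at the macro stage were Dnajc28 (-0.63 ± 0.13), Dnajc30 (-0.56 ± 0.11) and Dnajc4 (-0.51 ± 0.12). Dnajc28 read 7.81, 7.77 and 7.69 on healthy arrays, 7.18, 6.97 and 6.99 in MDA macro and 7.47, 7.06 and 7.28 in MDA-LM2 macro, without overlap, and its second probe set moved the same way (-0.54 between the stages, called).

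Among the 25 other DNAJ proteins, 4 were higher and 4 lower at the macro stage, shares near those of all genes (18.8% and 12.3%). The highest log2 fold change of the 70 genes between MDA macro and healthy lungs, and between the stages, was that of Dnajc6 (auxilin), which recruits Hspa8 to strip clathrin from vesicles and is known mainly from neurons. It read 6.71, 6.60 and 6.96 on healthy arrays, 6.51, 6.23 and 6.49 in MDA micro and 6.44, 6.97 and 6.38 in MDA-LM2 micro. MDA macro read 8.28, 8.48 and 8.34 and MDA-LM2 macro 7.88, 8.08 and 8.12. The 9 healthy and micro arrays were low and did not overlap the macro arrays. It was 3.05-fold higher than in healthy lungs in MDA macro (adjusted p = 0.000831), 2.41-fold in MDA-LM2 macro (adjusted p = 0.00113), and 3.23-fold between the stages (adjusted p = 1.73e-06), calls kept with any array left out, while the MDA-LM2 call was lost when all its probe sets were averaged (adjusted p = 0.0639). A second probe set of Dnajc6 rose by 1.09 between the stages, and the 2 others were not called.

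Other DNAJ genes moved less. Dnajc2, which sits on the ribosome with an HSP70 partner, was 0.59 ± 0.13 higher at the macro stage (9.86 to 10.60 against 9.16 to 9.65 on micro arrays), though not when all its probe sets were averaged (adjusted p = 0.0573). Dnajb13, a component of cilia, and Dnajc22 were dim and were 0.38 ± 0.08 and 0.35 ± 0.10 higher. Dnajc9, a chaperone of histones H3 and H4, was 0.54 ± 0.14 higher in MDA-LM2 macro than in healthy lungs (adjusted p = 0.0374). The difference was of similar size in MDA-LM2 micro (0.59 ± 0.14, adjusted p = 0.164) and MDA micro (0.47 ± 0.17, adjusted p = 0.557), not called. Dnajb2 (-0.55 ± 0.14), Dnajb7 (-0.40 ± 0.14, dim at 5.97 to 6.92), Dnajc24 (-0.37 ± 0.09), which acts in diphthamide synthesis, and Dnajb5 (-0.30 ± 0.09) were lower at the macro than at the micro stage. Dnaja4 read 10.49 on healthy replicate 2 and 9.99 on MDA-LM2 micro replicate 3 against 8.27 to 9.26 on the 13 others, and was called in 0 of 8 comparisons.

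**Figure D5:**
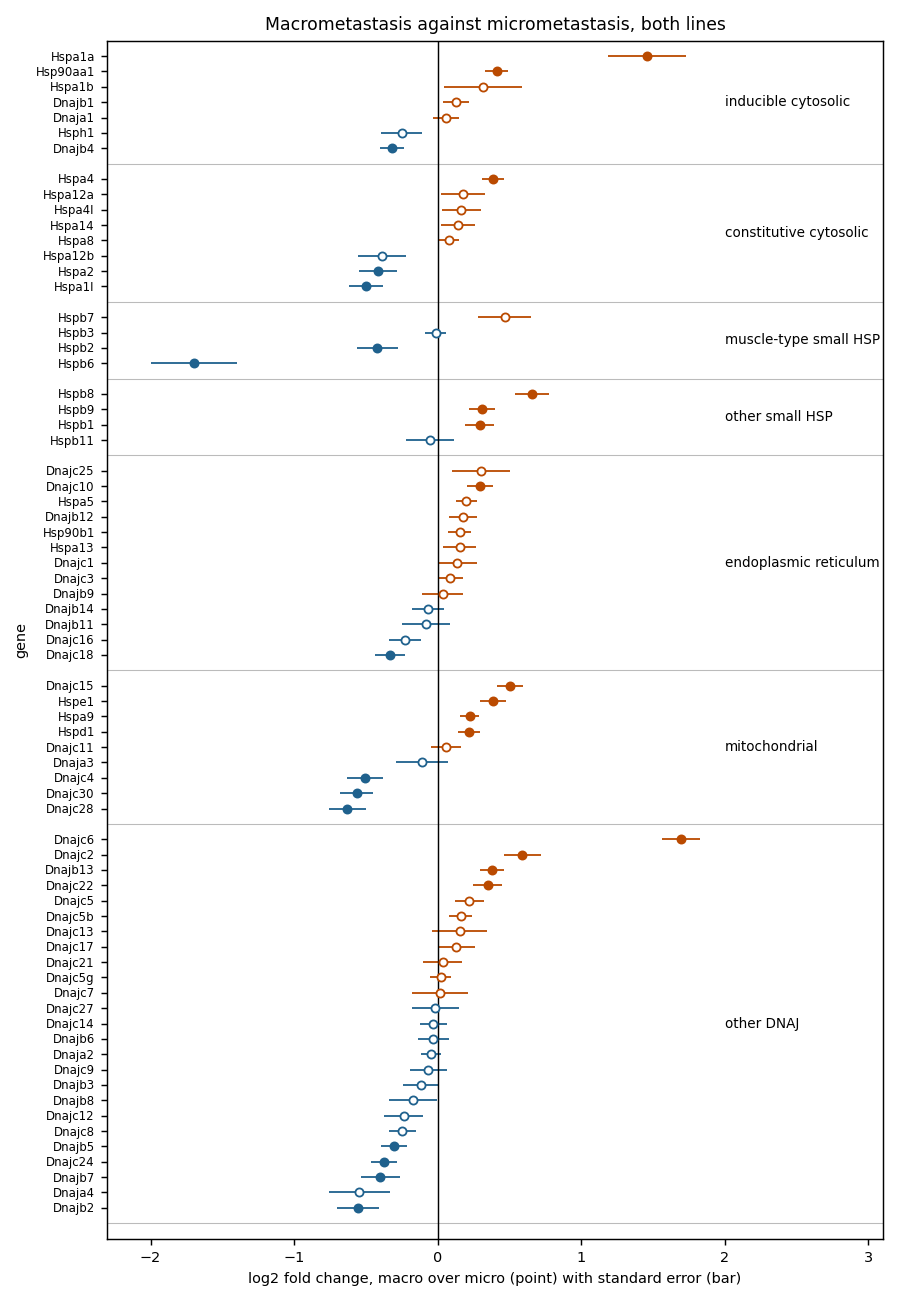
Log2 fold change of macro over micro for each of the 70 genes (points) with its standard error (bars), by class, from the fit over both lines on 12 arrays. Filled points have an adjusted p below 0.05, with Dnajc6 (1.69) and Hspa1a (1.46) farthest to the right and Hspb6 (-1.70) farthest to the left.

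Genes with a heat shock element in the promoter window did not all share a direction. Of the 16, 6 were higher and 2 lower at the macro stage (18.8% and 12.3% of all genes) with a median log2 fold change of 0.04, and of the 41 genes with a window but no element 5 were higher and 8 lower with a median of 0.02. Hspa1a was called higher and Hspa1b, with almost the same window, was not called. The difference between these genes was not tested, and their split is uncertain because their probe sets may read each other's transcripts. Hspb6 was called lower, and Hspb3, which also held an element, was dim on all arrays and not called.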

How the data were processed

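Probe set intensities of 15 Affymetrix Mouse Genome arrays were used. The authors amplified the RNA with a whole transcriptome kit and normalized the arrays by RMA in Chipster, and the deposited values are intensities on a linear scale (31.0 to 27897). How they were returned from log2 is not stated. They were converted to log2 with no further normalization. Preamplified RNA and probes near the 3′ end limit the comparison of levels between genes, so only differences within a gene were tested, and without scanner data dim signal cannot be told from background.

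Of 45100 probe sets, 64 were controls, 34957 had 1 symbol in the platform annotation, 932 had several and 9211 none, and 34753 matched RefSeq by gene identifier. A gene took its probe set with the highest mean, and 45 of the 70 members had several (169 in all). Genes were tested with limma 3.58.1 in R 4.3.3 (lmFit and eBayes, two-sided), on the 6 arrays of the groups compared, or on the 12 metastasis arrays for the stage effect (line as covariate) and its interaction with line, with Benjamini-Hochberg adjustment over 18193 genes. Errors are standard errors of the fit. The script was tested on simulated data. Alternatives were all 15 arrays in 1 fit, each array left out, quantile normalization, array medians subtracted, the replicate number as a block, the mean of all probe sets and genes above the median level only. The number of arrays limits the precision.

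Genes named were the cytosolic and small heat shock members, per comparison the 6 highest and 6 lowest called members, main organelle chaperones and, of other lists, called genes and main markers. The cytosolic members Hspa14 and Hspa4l were called in no comparison and are not described. Members, classes and lists were chosen with earlier results of these data known. Dnaja4 and Dnajb11 outlying arrays were noted after the values were seen. Promoter windows were read from a RefSeq table of GRCm38.p6 with Python.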

Additional observations from a re-analysis of the deposited data

Results flagged for a closer look

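The stage effect of 2 members, Hspb6 and Hspb7, differed between the lines by a test of the difference itself. For Hspb6 the interaction was -1.85 on the log2 scale (SE 0.30, adjusted p = 0.0217; 0.128 with all 15 arrays in 1 fit), with the 3 MDA-LM2 micro arrays (11.92 to 12.19) above all 12 others. For Hspb7 it was -1.22 (SE 0.14, adjusted p = 0.00554), with the MDA micro arrays (10.08 to 10.22) below all 9 other metastasis arrays (11.10 to 11.40). Groups of 3 arrays were not tested for outliers within a group.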

How the results depend on the processing

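Of the 3681 values of named genes under the alternatives, 3489 kept their side of the threshold, 172 lost the call and 20 gained one. Among values called in the main fit or in the alternative, 0 turned direction. The direction of values called in neither was not compared. Among counts of called members, those under quantile normalization, subtraction of array medians, the mean of all probe sets and the filter on dim genes stayed within 1.5 times the main count. With all 15 arrays in 1 fit, 1 member was called in MDA micro against healthy lungs in place of 0, and 1 in place of 2 for the interaction, where Hspb6 was lost (adjusted p = 0.128). Replicate numbers did not pair the arrays (30 same-number pairs correlated at -0.07 to 0.07). With the replicate block, calls were 0 in place of 3 in MDA-LM2 micro, 7 in place of 13 in MDA macro, 7 in place of 15 in MDA-LM2 macro and 0 in place of 2 between the lines at the micro stage. With each array left out, counts ranged from 0 to 2 in MDA-LM2 micro, 6 to 8 in MDA macro, 5 to 12 in MDA-LM2 macro, 0 to 2 between the lines at the micro stage, 21 to 26 between the stages and 1 to 2 for the interaction, and were 0 in MDA micro and between the lines at the macro stage. The lowest counts came without healthy replicate 3 (6) and without MDA-LM2 macro replicate 2 (5 and 21). Such fits hold fewer arrays. The longer heat shock element left 4 genes in place of 16.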
